A study of Mus musculus with 9 samples.

Results

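Neurotransmitter transporters and chloride cotransporters were examined in the newborn (P0) dorsal telencephalon, the forebrain region from which cortex and hippocampus develop, of mice carrying mutations of Tcf4. The 8 genes, taken by symbol and matched to their Ensembl mouse gene identifiers among the 41128 genes counted, were the vesicular glutamate transporters Slc17a7, Slc17a6 and Slc17a8, the vesicular GABA transporter Slc32a1, the plasma membrane GABA transporter Slc6a11, the plasma membrane glutamate transporter Slc1a1, and the chloride cotransporters Slc12a5 and Slc12a2. All 8 passed the filter on low counts and were among the 15271 genes tested. Total RNA was sequenced in 9 libraries: 3 from Tcf4 knockouts (KO), 3 from Tcf4 heterozygotes (Het) and 3 from wild types (WT). All were of the strain given as B6:129SF2/J. The labels give neither the allele or the deleted part of Tcf4, nor any transgene or further treatment, nor whether a library came from a single pup, so the p-values speak for variation among these libraries, which may be technical.

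Neurons load transmitter into synaptic vesicles with carriers that define the kind of synapse: SLC17 family members load glutamate and Slc32a1 loads GABA. Plasma membrane carriers on neurons and astrocytes remove transmitter from the extracellular space. Slc12a2 (NKCC1) brings chloride into the cell and Slc12a5 (KCC2) extrudes it. During postnatal maturation of the rodent cortex, KCC2 increases and the response to GABA shifts from depolarising towards hyperpolarising, while Slc17a7 (VGLUT1) becomes the main vesicular glutamate transporter of cortical excitatory neurons and Slc17a6 (VGLUT2), prominent earlier and in thalamic neurons, recedes there.

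Total counts ran from 26355671 to 29445788 in KO, from 24008445 to 29398411 in Het and from 22291940 to 23813314 in WT libraries. Tcf4 itself was counted at 611 to 638 CPM (counts scaled to library size) in KO, 652 to 822 CPM in Het and 584 to 728 CPM in WT libraries, with KO libraries inside the WT range. The gene-level count thus gave no clear check of the labels, which are used as given. Its log2 fold change was -0.10 (SE 0.09, adjusted p = 0.36) for KO versus WT, or -0.20 (adjusted p = 0.046) without WT replicate 3. All KO libraries lay below all Het libraries, and the KO versus Het value of -0.22 (adjusted p = 0.13) passed under 4 of 18 alternatives (adjusted p from 0.038 to 0.043). In KO replicate 3, Xist was counted 2730 times and Ddx3y 2 times, and the other 8 libraries had at most 3 of Xist and at least 794 of Ddx3y. Processed pseudogenes took 0.0804% to 0.0939% of counts in KO, 0.0917% to 0.10% in Het and 0.253% to 0.313% in WT libraries, and mitochondrial transcripts took 0.716% to 0.771%, 0.769% to 0.840% and 1.01% to 1.14% of counts in the same order. The part of these differences in the results below was not tested.

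In build mm10, Slc17a7 (ENSMUSG00000070570) lies on chromosome 7 from 45163949 to 45176142 and Slc17a6 (ENSMUSG00000030500) on chromosome 7 from 51622006 to 51671119, both on the plus strand. Slc17a8 (ENSMUSG00000019935) lies on the minus strand of chromosome 10 from 89574020 to 89621253. Slc32a1 (ENSMUSG00000037771) and Slc12a5 (ENSMUSG00000017740) lie on the plus strand of chromosome 2, from 158610767 to 158615748 and from 164960802 to 164999731. Slc6a11 (ENSMUSG00000030307) lies on chromosome 6 from 114131241 to 114249952 and Slc1a1 (ENSMUSG00000024935) on chromosome 19 from 28835049 to 28913960, both on the plus strand. Counts were summed over each gene, so isoforms were not separated. Of the 31-base words in their annotated transcripts, Slc32a1 shared 24.2% and Slc1a1 31.5% with other genes, and the other members at most 3.17%. Each of these 2 genes overlaps a gene on the opposite strand, Gm14205 at Slc32a1 and 4430402I18Rik at Slc1a1. No label or header says whether the counting used strand. Gm14205 had 0 to 1 counts per library, beside 733 to 2024 for Slc32a1. The gene 4430402I18Rik had 24 to 64 counts, beside 830 to 1201 for Slc1a1.

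TCF4 is a class I basic helix-loop-helix factor, and such factors bind the E-box CANNTG as dimers. RefSeq promoter windows (build GRCm38.p6, 250 bases before to 50 after a start) were found for 7 of the 8 genes. Shown here are those of the 4 members with the largest changes and, for contrast, of Slc17a6, a close relative of Slc17a7 for which no change was called: Slc17a7 (chr7:45163671-45163970), Slc17a6 (chr7:51621580-51621879), Slc32a1 (chr2:158610508-158610807), Slc6a11 (chr6:114130991-114131290) and Slc12a5 (chr2:164960596-164960895), each on the plus strand and written 5′ to 3′, with every CANNTG in capitals. For Slc17a6 and Slc12a5 the table holds a second start, and the upstream window is given.
Slc17a7: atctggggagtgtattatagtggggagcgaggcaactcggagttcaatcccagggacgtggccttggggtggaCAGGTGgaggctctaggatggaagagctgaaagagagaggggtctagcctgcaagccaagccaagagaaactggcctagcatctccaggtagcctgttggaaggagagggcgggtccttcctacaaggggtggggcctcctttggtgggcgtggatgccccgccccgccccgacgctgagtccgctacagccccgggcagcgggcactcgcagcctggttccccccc
Slc17a6: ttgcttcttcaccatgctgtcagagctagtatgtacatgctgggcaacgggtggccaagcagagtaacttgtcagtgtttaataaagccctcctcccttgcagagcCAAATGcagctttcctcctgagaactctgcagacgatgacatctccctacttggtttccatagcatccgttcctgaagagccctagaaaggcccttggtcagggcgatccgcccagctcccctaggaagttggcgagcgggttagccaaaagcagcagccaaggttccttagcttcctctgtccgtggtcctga
Slc32a1: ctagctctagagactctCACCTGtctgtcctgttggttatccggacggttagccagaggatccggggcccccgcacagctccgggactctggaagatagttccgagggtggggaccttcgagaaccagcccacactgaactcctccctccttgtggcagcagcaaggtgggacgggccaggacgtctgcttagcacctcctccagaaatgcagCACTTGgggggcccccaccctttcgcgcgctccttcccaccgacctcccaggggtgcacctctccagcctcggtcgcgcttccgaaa
Slc6a11: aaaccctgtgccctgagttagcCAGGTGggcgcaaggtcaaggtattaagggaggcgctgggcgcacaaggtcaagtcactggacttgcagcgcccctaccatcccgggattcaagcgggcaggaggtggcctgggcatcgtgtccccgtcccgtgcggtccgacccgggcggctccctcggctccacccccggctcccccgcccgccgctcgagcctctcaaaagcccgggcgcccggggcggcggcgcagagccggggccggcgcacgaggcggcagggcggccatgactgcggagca
Slc12a5: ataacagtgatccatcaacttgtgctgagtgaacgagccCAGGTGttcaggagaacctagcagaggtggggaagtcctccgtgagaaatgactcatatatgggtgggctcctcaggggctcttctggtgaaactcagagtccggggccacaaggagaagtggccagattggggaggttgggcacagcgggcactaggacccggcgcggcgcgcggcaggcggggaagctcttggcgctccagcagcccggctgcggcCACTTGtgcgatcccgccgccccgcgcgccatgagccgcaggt

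The word CANNTG reads the same on both strands and was present in 72.3% of all 32851 windows of the same length, so its presence is common. Of its forms, 2 were counted apart. The word CAGCTG was present in 16.3% of windows, and each window taken for a member held 0 of it. The word CACCTG, on either strand (CACCTG or CAGGTG, each also a CANNTG), was present in 20.2% of windows. One word of the CACCTG kind each stood in the windows of Slc17a7, starting 177 bases before the start, Slc6a11 (228 bases), Slc32a1 (233 bases) and Slc12a5 (211 bases, with another 44 bases before its second start). None stood in either Slc17a6 window or in the Slc1a1 window, which held 0 CANNTG words. The first window of Slc17a8 held 2. These are matches of letters in short windows. They do not show binding.

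Vesicular glutamate transporters differed from each other. Slc17a7 had 64.7, 66.2 and 56.7 CPM in the KO libraries, 108, 109 and 107 CPM in the Het libraries and 215, 216 and 207 CPM in the WT libraries. The 3 genotypes did not overlap, with KO lowest and Het between KO and WT. On the log2 scale, with 3 libraries a group, KO differed from WT by -1.77 ± 0.06 (SE; edgeR, adjusted p = 3.5e-13) and Het from WT by -0.98 ± 0.06 (adjusted p = 8.5e-10). KO differed from Het by -0.79 ± 0.06 (adjusted p = 7.3e-08). Of all genes tested, 2.55% had a lower log2 fold change than Slc17a7 in KO versus WT.

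Slc17a6 had 43.8, 39.8 and 38.8 CPM in the KO libraries, 38.0, 50.5 and 28.6 CPM in the Het libraries and 47.7, 31.4 and 42.3 CPM in the WT libraries. The genotypes overlapped throughout, and the spread within Het and WT was wider than any difference between means. The log2 fold change was 0.01 for KO versus WT (95% interval -0.54 to 0.56, adjusted p = 0.97) and -0.05 for Het versus WT (-0.60 to 0.50, adjusted p = 0.88). The intervals therefore leave room for a change of either sign within these bounds, and a fall as large as that of Slc17a7 lies outside both.

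Slc17a8 (VGLUT3), which marks small neuron populations that often also release another transmitter, was near the limit of detection, with 27 to 32 counts in KO, 11 to 38 in Het and 26 to 29 in WT libraries. That is 0.941 to 1.06 CPM in KO, 0.451 to 1.29 CPM in Het and 1.16 to 1.31 CPM in WT libraries. All 3 KO libraries lay below all WT libraries, but the log2 fold change of -0.27 (95% interval -0.93 to 0.38, adjusted p = 0.48) did not pass the threshold. For Het versus WT it was -0.31 (-0.97 to 0.35, adjusted p = 0.44), and 0.02 without Het replicate 1.

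**Figure D1:**
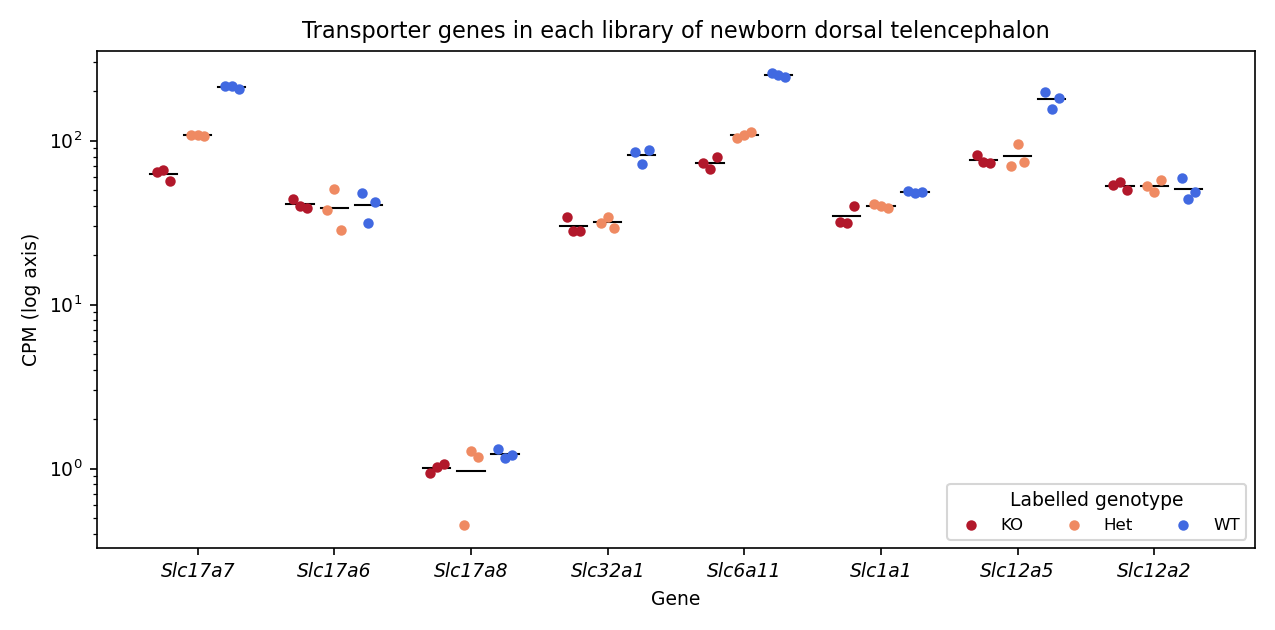
CPM of the 8 transporter genes (log axis) in each of 9 libraries; points are libraries, coloured and ordered KO, Het, WT within a gene, and bars are means of 3. Slc17a7 and Slc6a11 were lowest in KO, intermediate in Het and highest in WT without overlap, Slc32a1 and Slc12a5 were lower in KO and Het with these 2 overlapping each other, and Slc17a6 and Slc12a2 overlapped in all genotypes.

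The vesicular and plasma membrane GABA transporters were lower in both mutant genotypes. Slc32a1 (VGAT), which loads GABA and glycine into vesicles of inhibitory neurons, had 34.2, 27.9 and 28.2 CPM in KO, 31.4, 34.4 and 29.4 CPM in Het and 85.2, 71.9 and 87.1 CPM in WT libraries. KO and Het libraries overlapped each other and all lay below WT. The log2 difference from WT was -1.44 ± 0.09 (SE) in KO (adjusted p = 5.1e-09) and -1.36 ± 0.09 in Het (adjusted p = 1.7e-08). Between KO and Het it was -0.08 (95% interval -0.28 to 0.12, adjusted p = 0.65).

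Slc6a11 (GAT3), a GABA uptake carrier found mainly on astrocytes in the brain, had 73.4, 67.2 and 79.7 CPM in KO, 104, 108 and 113 CPM in Het and 257, 252 and 244 CPM in WT libraries. Like Slc17a7, it did not overlap between any pair of genotypes. Against WT, the log2 difference was -1.77 ± 0.06 (SE) in KO (adjusted p = 6.9e-13) and -1.21 ± 0.06 in Het (adjusted p = 1.2e-10), and KO lay below Het by a log2 difference of -0.56 ± 0.06 (adjusted p = 5.7e-06).

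Slc1a1 (EAAT3), a glutamate and cysteine uptake carrier of neurons, changed least among the members called. It had 32.1, 31.6 and 39.9 CPM in KO, 40.8, 39.7 and 39.1 CPM in Het and 49.4, 47.8 and 48.5 CPM in WT libraries. All mutant libraries lay below all WT libraries, and KO replicate 3 lay within the Het range. Relative to WT, the log2 difference was -0.49 ± 0.08 (SE) in KO (adjusted p = 9.5e-05) and -0.28 ± 0.08 in Het (adjusted p = 0.0094). The KO versus Het value of -0.21 did not pass (adjusted p = 0.099). Without KO replicate 3 it was -0.33 and passed (adjusted p = 0.0049). KO replicate 3 is also the library set apart by its counts of Xist (2730) and Ddx3y (2). The part of that difference in the Slc1a1 values was not tested.

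The chloride cotransporters parted in the same way in both mutants. Slc12a5 had 81.2, 74.0 and 72.7 CPM in KO, 70.2, 95.9 and 74.5 CPM in Het and 199, 155 and 181 CPM in WT libraries. Every KO and Het library lay below every WT library, and KO and Het overlapped. Compared with WT, the log2 difference was -1.23 ± 0.13 (SE) in KO (adjusted p = 1.0e-04) and -1.15 ± 0.13 in Het (adjusted p = 2.1e-04). For KO versus Het it was -0.08 (95% interval -0.39 to 0.23, adjusted p = 0.76), and 0.06 without Het replicate 2.

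Slc12a2 (ENSMUSG00000024597, mm10 chromosome 18, 57878678 to 57946821, plus strand) had 53.4, 56.0 and 50.2 CPM in KO, 52.6, 48.9 and 57.3 CPM in Het and 58.8, 43.8 and 48.8 CPM in WT libraries. The genotypes overlapped, with the highest and the lowest library both in WT. The log2 fold change was 0.08 for KO versus WT (95% interval -0.13 to 0.28, adjusted p = 0.53) and 0.07 for Het versus WT (-0.13 to 0.27, adjusted p = 0.59), and both were slightly negative (-0.02) without WT replicate 2.

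**Figure D2:**
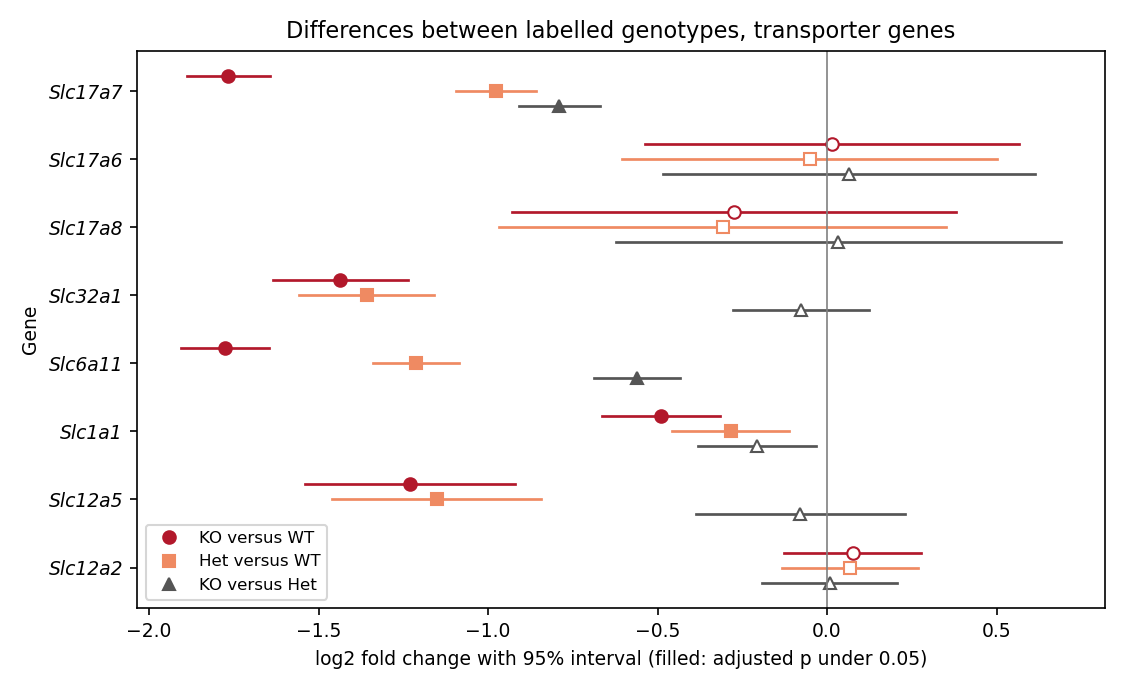
log2 fold change of each transporter gene with its 95% interval for KO versus WT, Het versus WT and KO versus Het (edgeR, n = 3 per group); filled symbols have adjusted p under 0.05. Slc17a7 and Slc6a11 are called in all 3 comparisons, Slc32a1, Slc1a1 and Slc12a5 against WT alone, and Slc17a6, Slc17a8 and Slc12a2 in none.

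In KO versus WT, 5 of the 8 members were called, all lower, whereas 52.8% of all genes tested were called in either direction and 26.3% were called lower. The same 5 were called lower in Het versus WT, where 45.9% of all genes were called and 23.4% were called lower. These comparisons share the WT libraries, so they are not independent. In KO versus Het 2 of 8 were called, both lower, against 16.7% of all genes, 8.44% called lower and 8.3% called higher. The libraries did not overlap for 6 members in KO versus WT (62.7% of all genes), for 5 in Het versus WT (53.6%) and 2 in KO versus Het (33.4%). The median log2 fold change of the 8 was -0.86, -0.64 and -0.08 in KO versus WT, Het versus WT and KO versus Het, and the median of all genes was 0.01, 0.01 and 0.00.

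Levels between genes were compared per length, from the deposited FPKM (fragments scaled to gene length and library size). The lengths implied by these values ran from 2192 bases for Slc1a1 to 6520 for Slc12a2, with 2558 for Slc12a5. Whether they match the transcripts present was not tested, and the order and the FPKM ratios between genes rest on them. In KO libraries the order was Slc12a5 at 29.8 ± 1.5 FPKM, Slc17a7 at 21.4 ± 1.4, Slc6a11 at 18.2 ± 1.8, Slc1a1 at 15.9 ± 2.4, Slc32a1 at 10.8 ± 1.2, Slc17a6 at 9.50 ± 0.52, Slc12a2 at 8.19 ± 0.34 and Slc17a8 at 0.322 ± 0.024 FPKM (SD, n = 3). Slc17a7, Slc6a11 and Slc1a1 overlapped with their neighbours in this order, as did Slc32a1 and Slc17a6. In Het libraries Slc17a7 was at 37.3 ± 0.18, Slc12a5 at 31.8 ± 5.2 and Slc6a11 at 27.0 ± 1.2 FPKM, with Slc12a5 overlapping both. In WT libraries Slc17a7 at 70.9 ± 2.0, Slc12a5 at 68.3 ± 9.3 and Slc6a11 at 60.6 ± 2.1 FPKM led, and neighbours in this order overlapped. Next in WT came Slc32a1 at 28.5 ± 3.1 and Slc1a1 at 21.7 ± 0.62 FPKM, whose places were exchanged in KO and Het libraries.

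The ratio of FPKM between related carriers was taken within each library, which removes library scaling. The Slc17a7 to Slc17a6 ratio was 2.17, 2.44 and 2.15 in KO, 4.198, 3.16 and 5.50 in Het and 6.61, 10.1 and 7.20 in WT libraries. The 3 genotypes did not overlap, with means of 2.25 ± 0.16, 4.28 ± 1.2 and 7.98 ± 1.9 (SD, n = 3) in KO, Het and WT. The Slc12a5 to Slc12a2 ratio was 3.87, 3.37 and 3.69 in KO, 3.40, 4.997 and 3.31 in Het and 8.62, 9.02 and 9.43 in WT libraries. KO and Het overlapped, and every mutant library lay below every WT library. Since the ratios were built from members with known differences, they are descriptions with no test.

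**Figure D3:**
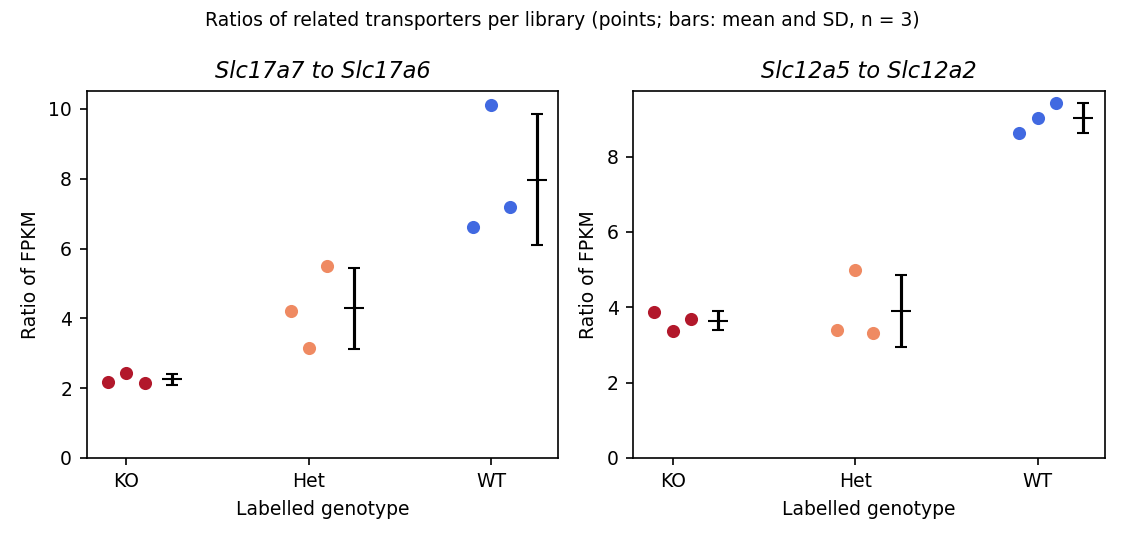
Ratio of FPKM per library for Slc17a7 to Slc17a6 (left) and Slc12a5 to Slc12a2 (right), in KO, Het and WT; points are libraries and bars are mean and SD (n = 3). The left ratio separates the 3 genotypes, with means of 2.25, 4.28 and 7.98, and the right one separates KO (3.65) and Het (3.90) from WT (9.02).

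In whole tissue, fewer cells of a type and less RNA per cell cannot be told apart, so markers of the cell types that hold these carriers are given beside them. Cortical glutamatergic neurons use Slc17a7. Their 10 marker genes summed to 2417 to 2515 CPM in KO, 2306 to 2608 CPM in Het and 1836 to 2134 CPM in WT libraries. In KO versus WT 5 of the 10 were higher, among them the bHLH factors Neurod2 (log2 fold change 0.61) and Neurod6 (0.85) and the deep-layer factor Fezf2 (0.98). The zinc finger factor Bcl11b (-0.50) and the layer 4 receptor Rorb (-1.36) were lower. The same 5 were higher and the same 2 lower in Het versus WT. Over all genes tested, 26.5% were called higher and 26.3% lower in KO versus WT. In Het versus WT these shares were 22.5% and 23.4%. All 10 passed the filter on low counts. Their part in the Slc17a7 difference was not tested.

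Cajal-Retzius cells, early cortical neurons that use Slc17a6, had 5 of 6 markers higher in KO versus WT and 0 lower. In that comparison 26.5% of all genes tested were called higher. Summed levels of the 6 markers were 620 to 699 CPM in KO, 691 to 896 CPM in Het and 424 to 474 CPM in WT libraries. Reln held most of this sum, with means of 576 CPM in KO, 700 CPM in Het and 400 CPM in WT libraries. Of 5 thalamic markers, 4 were tested, and Rgs16 was higher and Tcf7l2 lower in KO versus WT. Their sum was 36.02 to 38.7 CPM in KO, 30.6 to 33.3 CPM in Het and 22.4 to 35.8 CPM in WT libraries, and the defining marker Gbx2 fell short of the filter on low counts. The part of either cell type in the Slc17a6 level was not tested.

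Of 10 interneuron markers, 7 were lower and 1 was higher in KO versus WT, and likewise in Het versus WT, with sums of 551 to 605 CPM in KO, 578 to 659 CPM in Het and 734 to 781 CPM in WT libraries. Of all genes tested, 26.3% were called lower in KO versus WT and 23.4% in Het versus WT. Gad1 and Gad2 are among the 7 and are counted again with the GABA enzymes below. Among the 10 markers Dlx6 (-2.49) and Sp9 (-1.81), homeobox and zinc finger factors of ventral origin, fell more in KO than Slc32a1 did in log2 fold change, while Lhx6, a factor of medial ganglionic eminence interneurons, was higher (0.35), and Dlx1 was at -0.05 (adjusted p = 0.44). Striatal projection neurons are GABAergic and lie next to the dissected region. Their 10 markers summed to 67.8 to 71.8 CPM in KO, 64.1 to 77.8 CPM in Het and 362 to 397 CPM in WT libraries, with 9 lower in KO and all 10 lower in Het. Their part in the Slc32a1 difference was not tested.

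Of 10 astrocyte markers, 7 were lower in KO versus WT and 9 in Het versus WT, with median log2 fold changes of -1.33 and -1.22, beside -1.77 and -1.21 for Slc6a11. Over all genes tested, 26.3% were called lower in KO versus WT and 23.4% in Het versus WT. The 10 markers summed to 690 to 746 CPM in KO, 649 to 719 CPM in Het and 1266 to 1293 CPM in WT libraries, and KO and Het overlapped. Sparcl1 held a large part of this sum, with means of 378 CPM in KO, 300 CPM in Het and 377 CPM in WT libraries. In KO versus Het, 2 markers were lower (Aqp4 at -0.58 and Bcan at -0.54), beside -0.56 for Slc6a11. Sparcl1 was higher (0.33), and 7 markers were not called. The water channel Aqp4 (-2.54) and the proteoglycan Bcan (-1.97) fell further than Slc6a11 in KO. So did S100b (-3.10), which was scarce, with means of 0.174 CPM in KO and 1.55 CPM in WT libraries. Sparcl1, a matricellular protein, was at 0.01 (adjusted p = 0.94). The part of the astrocyte share in the Slc6a11 difference was not tested.

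Other genes of transmitter and chloride handling were taken from 7 lists holding 47 genes, of which 36 were tested. In KO versus WT 23 were lower, 2 higher and 11 not called, in Het versus WT 19 were lower, 1 higher and 16 not called, and in KO versus Het 6 were lower, 1 higher and 29 not called. The shares called were 69.4%, 55.6% and 19.4%, beside 52.8%, 45.9% and 16.7% of all genes tested. Their median log2 fold change was -0.33, -0.25 and -0.08 in these comparisons, beside 0.01, 0.01 and 0.00 over all genes.

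Among SLC1 carriers, 4 of 5 tested were lower in KO and 3 in Het against WT. The astrocytic glutamate transporter Slc1a2 (GLT-1) was lower in all 3 comparisons, at 76.6 ± 6.2 CPM in KO, 96.8 ± 4.4 CPM in Het and 218 ± 25 CPM in WT libraries (SD, n = 3). Its KO versus Het value of -0.34 had adjusted p = 0.010, and adjusted p = 0.0505 without Het replicate 3. The neutral amino acid carrier Slc1a4 was at 152 ± 1.1 CPM in KO, 213 ± 7.6 CPM in Het and 208 ± 1.6 CPM in WT libraries, and was called lower in KO against both other genotypes. All 4 tested SLC6 carriers were lower in KO versus WT and 3 in Het versus WT. The taurine transporter Slc6a6 was lower in all 3 comparisons, at 153 ± 6.4, 188 ± 7.6 and 237 ± 8.2 CPM in KO, Het and WT. Slc6a13 (GAT2), a GABA carrier found mainly in the meninges, was scarcely counted, at 0.038 to 0.133 CPM in KO, 0.380 to 0.508 CPM in Het and 0.178 to 1.17 CPM in WT libraries. Its call in KO versus WT (adjusted p = 0.0079) did not hold when WT replicate 1 was left out (adjusted p = 0.13), and its call in KO versus Het (adjusted p = 0.038) was lost without any single KO or Het library. With limma on log2(FPKM + 1) neither Slc6a13 call held (-0.39 and adjusted p = 0.076 for KO versus WT, -0.38 and adjusted p = 0.17 for KO versus Het).

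All 4 genes of GABA synthesis and breakdown were lower in KO and in Het against WT. Abat, the GABA transaminase, was at 60.8 ± 2.9 CPM in KO, 53.3 ± 2.3 CPM in Het and 134 ± 12 CPM in WT libraries. The GABA-synthesising enzyme Gad2 was called in all 3 comparisons and was lowest in Het, at 31.3 ± 1.4 CPM in KO, 24.5 ± 3.9 CPM in Het and 38.6 ± 5.5 CPM in WT libraries. Its log2 fold change was -0.30 (adjusted p = 0.037) for KO versus WT, -0.66 (adjusted p = 3.5e-04) for Het versus WT and 0.36 (adjusted p = 0.045) for KO versus Het. The KO versus WT call was lost without any single KO library, or without WT replicate 1 or 3 (adjusted p from 0.054 to 0.167), and with upper-quartile factors or limma (0.0505 to 0.0991). The KO versus Het call was lost without any single KO library, Het replicate 2 or 3, or WT replicate 3 (adjusted p from 0.062 to 0.159), and with upper-quartile factors, the 1 CPM filter or limma (0.0509 to 0.0811).

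Of the other SLC12 cotransporters, 5 were tested, and in KO versus WT 2 were higher and 1 lower. Slc12a7 (KCC4), a potassium-chloride cotransporter, was at 21.5 ± 1.1 CPM in KO, 25.1 ± 3.5 CPM in Het and 10.2 ± 0.36 CPM in WT libraries. The log2 difference of Slc12a7 from WT was 1.07 ± 0.10 (SE) in KO (adjusted p = 1.9e-07) and 1.29 ± 0.10 in Het (adjusted p = 3.7e-08), opposite in sign to Slc12a5. Of 6 kinases that phosphorylate these cotransporters or act above them, 1 was lower in KO versus WT, 2 in Het versus WT, and 0 of 6 were called by edgeR in KO versus Het.

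Of 9 glutamine carriers and glutamate enzymes, 6 were lower in KO versus WT, 5 in Het versus WT and 1 in KO versus Het, and none was called higher by edgeR. Of the other SLC17 and SLC18 vesicular carriers 3 of 9 were tested. Slc18a3, the vesicular acetylcholine transporter, had 0.457 to 0.564 CPM in KO, 0.440 to 0.657 CPM in Het and 2.09 to 2.98 CPM in WT libraries, with log2 fold changes of -2.33 (SE 0.26) and -2.30 (SE 0.26) for KO and Het versus WT. Slc18a2, the vesicular monoamine transporter, was at 2.14 ± 0.21 CPM in KO, 3.91 ± 0.064 CPM in Het and 3.55 ± 0.47 CPM in WT libraries and was called lower in KO against both.

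**Figure D4:**
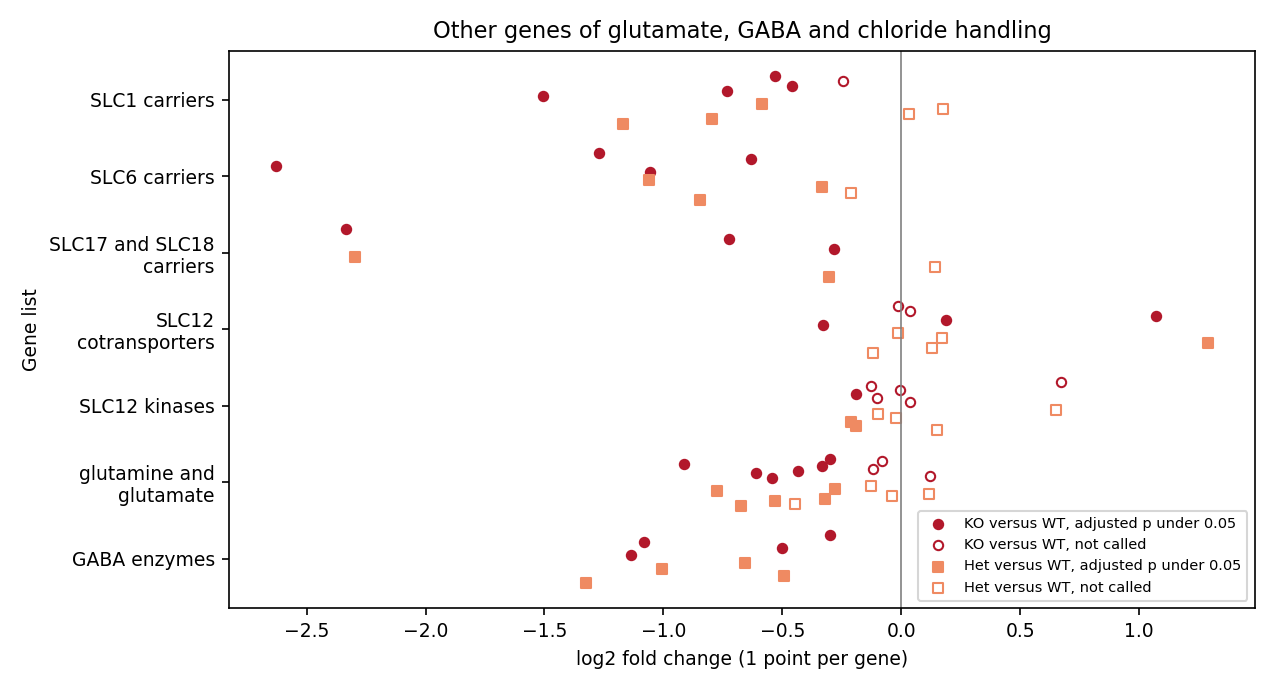
log2 fold change of 36 other genes of glutamate, GABA and chloride handling in 7 lists, for KO versus WT and Het versus WT; each point is a gene, filled where adjusted p was under 0.05. SLC1 and SLC6 carriers and GABA enzymes that were called are all below 0, and Slc12a7, at 1.07 and 1.29, lies farthest to the right.

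The genes whose profile over the 9 libraries lay nearest to a member were found from the root mean square distance between log2 CPM profiles, each centred on its own mean. They were Icam5, a dendritic adhesion molecule of telencephalic neurons (0.086), the spectrin gene Sptb (0.091) and the growth factor gene Igf1 (0.114) for Slc17a7, whose own root mean square deviation was 0.725. For Slc6a11 they were Tril (0.080), Inf2 (0.091) and Lor (0.093), and for Slc12a5 the chemokine gene Cx3cl1 (0.070), the acetylcholinesterase gene Ache (0.077) and Gad1 (0.092). The nearest to Slc17a6 were Fcgr3 (0.079), Gm6142 (0.122) and Zbtb8b (0.136), beside its own deviation of 0.249. For Slc12a2, whose deviation was 0.127, they were Ppp1r12b (0.065), Usp48 (0.076) and Fam120a (0.076), and 65 genes lay within 0.1 of it. Within 0.1 lay 2 genes for Slc17a7, 1 for Slc17a6, 3 for Slc6a11 and 4 for Slc12a5. Profiles rest on 9 libraries in 3 genotypes, so genes with similar genotype means can lie close together.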

How the data were processed

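Whole-number counts and FPKM, as deposited by the authors, cover 9 libraries (NEBNext Ultra RNA kit, per the labels' protocols). The submitters' processing notes list HTSeq 0.6.1, DESeq 1.10.1, TopHat2 2.0.9, Bowtie2 2.0.6 and the build mm10, without roles. The deposited FPKM equal counts divided by 1 length per gene and the library total (largest log2 difference 1.4e-14). Symbols and positions came from GENCODE M21 (40254 of 41128 genes matched). Counts were tested with edgeR 4.0.16 in R 4.3.3: filterByExpr (minimum count 10, minimum total 15), which kept 15271 genes with at least 99.9% of each library's counts, TMM factors, and 1 quasi-likelihood fit (robust) over the 3 genotypes together. P-values were adjusted by Benjamini-Hochberg over all genes tested, with calls at 0.05. CPM use TMM-scaled library sizes. An SE equals the absolute log2 fold change over the square root of F, and the 95% interval uses the fit's degrees of freedom.

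The members, lists and tests were chosen with earlier results of these data known. Named were all members, Tcf4, up to 3 called genes of the other lists with the largest fold in each direction per comparison, those called in all 3, and 3 nearest profiles for 5 members. The values of 1 gene that this rule names are not reported here. Marker genes named beside them were chosen after their values were seen. Alternatives were other scaling (DESeq2 size factors, upper quartile), filters, DESeq2 1.42.0, limma 3.58.1 on log2(FPKM + 1) and log2(FPKM + 0.1), a replicate block, a fit to the compared genotypes alone, and leaving out each library. Replicate numbers are not said to pair libraries. The fit was tested on simulated data. Figures used Python 3.11.15 and matplotlib 3.10.9.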

Additional observations from a re-analysis of the deposited data

How the results depend on the processing

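The number of members called was 5 for KO versus WT and 5 for Het versus WT under all 18 alternatives. For KO versus Het it was 2, and 3 without KO replicate 3, where Slc1a1 passed. Of 432 alternative values of the members' log2 fold changes, 411 kept their direction and side of the threshold, 0 lost a call, 1 gained one and 20 changed sign, all 20 among values not called. With other settings, the Slc17a6 value in KO versus WT was -0.00086 with the filter of 1 CPM in 3 libraries, and the Slc12a2 value in KO versus Het was -0.0049 with upper-quartile factors, -0.0058 with 1 CPM in 3 libraries, -0.0044 and -0.0046 with limma on log2(FPKM + 1) and log2(FPKM + 0.1), and -0.0042 with only the genotypes compared. Over the libraries left out, KO versus WT values ran from -0.14 to 0.15 for Slc17a6 and from -0.017 to 0.20 for Slc12a2. Het versus WT values ran from -0.27 to 0.14 for Slc17a6, from -0.54 to 0.0214 for Slc17a8 and from -0.024 to 0.19 for Slc12a2. KO versus Het values ran from -0.12 to 0.29 for Slc17a6, from -0.29 to 0.27 for Slc17a8, from -0.17 to 0.0596 for Slc12a5 and from -0.0582 to 0.0656 for Slc12a2. The cause was not tested. Genes called over the whole table ran from 7050 to 8365 (KO versus WT), 5806 to 7068 (Het versus WT) and 1432 to 2561 (KO versus Het) with a library left out, against 8061, 7011 and 2556 with all 9. The lowest KO versus Het counts were 1467 without KO replicate 1 and 1432 without KO replicate 2. Same-numbered libraries did not deviate together (correlation of deviations across genes from -0.11 to 0.08 in 9 pairs), and with the replicate block 7775, 6641 and 2166 genes and 5, 5 and 2 members were called. Limma on log2(FPKM + 1) placed 55.7% and 57.8% of its KO versus WT and Het versus WT calls on the higher side, against 50.1% and 49.0%. With raw counts in place of FPKM, Slc17a7 to Slc17a6 ratios averaged 1.53, 2.92 and 5.43, and Slc12a5 to Slc12a2 ratios 1.43, 1.53 and 3.54, in KO, Het and WT, since gene lengths differ. Depth limits Slc17a8, counted 11 to 38 times per library.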

Other observations

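The remaining marker lists are given as values. Over all genes tested, 26.5% were called higher and 26.3% lower in KO versus WT. In Het versus WT these shares were 22.5% and 23.4%. All 6 oligodendrocyte lineage markers were lower in KO versus WT and 5 in Het versus WT, with sums of 174 to 207 CPM in KO, 179 to 184 CPM in Het and 336 to 361 CPM in WT libraries. All 5 microglial markers were lower in both mutants against WT, at 41.5 to 43.4 CPM in KO, 38.2 to 41.5 CPM in Het and 80.4 to 88.9 CPM in WT libraries. Radial glia and intermediate progenitor markers were higher in 5 of 8 cases in KO versus WT and in 5 of 8 in Het versus WT, with 1 lower in Het, and summed to 706 to 729 CPM in KO, 557 to 654 CPM in Het and 400.3 to 418 CPM in WT libraries. Endothelial sums lay close together, at 185 to 190 CPM in KO, 186 to 198 CPM in Het and 190 to 193 CPM in WT libraries, with 2 of 5 markers higher and 1 lower in KO and 4 higher and 1 lower in Het. Choroid plexus epithelium also uses Slc12a2, and its 7 markers summed to 10.1 to 30.0 CPM in KO, 2.34 to 19.9 CPM in Het and 3.10 to 5.33 CPM in WT libraries, with 2 of 6 tested higher in KO and 1 in Het. Ttr held most of this sum in KO and Het, with means of 18.4 CPM in KO, 7.65 CPM in Het and 0.597 CPM in WT libraries. The part of this epithelium in the Slc12a2 level was not tested. Serotonergic neurons can use Slc17a8, and their 3 markers summed to 1.98 to 2.55 CPM in KO, 2.38 to 3.01 CPM in Het and 2.44 to 4.23 CPM in WT libraries, with Fev at 0 counts in all 9. The 2 tested markers, both scarce, went opposite ways in KO versus WT. Tph2 was higher (0.68, adjusted p = 0.024 by edgeR) and Slc6a4 lower (-2.70, adjusted p = 5.4e-06). Slc6a4 was also lower in KO versus Het (-2.13, adjusted p = 4.6e-04), and neither was called in Het versus WT.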
